A study of Homo sapiens with 6 samples.

Results

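Human chromosome 19 is known for its dense clusters of C2H2 zinc finger genes. Members were taken as every entry of the deposited expression table whose symbol is ZNF followed by digits, with or without a letter, and whose gene ID lies on chromosome 19. This rule used symbols and positions only, and gave 251 gene IDs out of 20356 in the table. They carry 246 symbols, since 5 symbols (ZNF763, ZNF788, ZNF709, ZNF223 and ZNF8) stand on 2 overlapping IDs each, which are told apart by their coordinates here. The table lists 515 such IDs over all chromosomes, of which 264 lie elsewhere. RNA sequencing of 6 libraries gave their levels in H1975, a human line from a lung adenocarcinoma with mutant EGFR. Parental H1975 cells, grown without drug, gave 3 libraries, and H1975 OR cells, a resistant derivative given 1 µM osimertinib, an inhibitor of mutant EGFR, gave the other 3, all in the same medium with serum. The design text names the 3 libraries of each group biological replicates. Resistance and drug exposure go together in this design, and H1975 OR is a single derivative, so these cannot be told apart from each other or from other changes of that line.

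C2H2 zinc finger proteins bind DNA through tandem fingers, each of which contacts a few bases. Many of those encoded on chromosome 19 also carry a KRAB box, a domain that recruits the corepressor TRIM28 and, through it, histone methyltransferases and heterochromatin proteins. They are known above all for repressing retrotransposons and for arising by repeated local duplication, which left them side by side in clusters of related genes. In many carcinomas, promoters of zinc finger genes in the distal long arm of this chromosome are reported to be methylated.

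The libraries of a group resembled each other closely, with Spearman correlations of 0.9947 to 0.9962 over all tested genes, against 0.8456 to 0.8538 between the groups. Values are FPKM, fragments scaled to gene length and to the library's total, and the depth in reads is unknown. Markers of epithelium moved with the groups. The summed FPKM of EPCAM, CDH1, KRT8, KRT18 and KRT19 was 1670 to 1870 in parental and 636 to 699 in resistant libraries. In the latter CDH1 was near 0, and EPCAM, with a mean of 211 FPKM in parental cells, was at most 1.28 FPKM. The mean of KRT19 fell from 574 FPKM in parental to 4.58 FPKM in resistant cells. KRT8 (508 to 384 FPKM) and KRT18 (431 to 274 FPKM) were lower but kept most of their level. The lung marker NKX2-1, with a mean of 26.7 FPKM in parental cells, was listed at 0 in every resistant library. Of the other lung markers, SFTPB was near 0 in both groups, and NAPSA had means of 0.965 FPKM in parental and 0.114 FPKM in resistant cells. Fibroblast markers summed to 2.39 to 2.95 in parental and 18.0 to 21.9 in resistant libraries, with DCN at 0 throughout, and leukocyte markers to 23.2 to 26.7 and 69.5 to 79.3, with PTPRC, CD3E and MS4A1 at or near 0 in all. Endothelial markers summed to at most 1.25. The part of these shifts in the results below was not tested.

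More of the tested zinc finger genes of chromosome 19 were lower than higher in resistant cells, above all the more abundant ones. Their summed level was 2000, 2070 and 1960 FPKM in the parental libraries and 1260, 1250 and 1340 FPKM in the resistant ones. The groups did not overlap, and the mean fell from 2010 ± 54.6 to 1280 ± 52.8 FPKM (SD, n = 3), a ratio of 0.637. In bulk RNA, fewer cells of a type and less RNA per cell cannot be told apart. A gene was tested with limma on log2(FPKM + 1) if its mean reached 1 FPKM in either group, and differences are resistant minus parental on that scale. Of the 251 members, 227 passed this filter. Past an adjusted p of 0.05, 59 were higher (26.0%) and 139 lower (61.2%), while 29 did not pass. Over all 12107 genes tested, 78.0% passed, 39.9% being higher and 38.1% lower. Falls of at least 1 on the log2 scale were seen for 53 members (23.3%, against 9.39% of all tested genes), and rises of that size for 13 (5.73%, against 9.95%). The median difference was -0.42 for tested members and 0.01 for all tested genes. Without the filter the direction of the means was similar, with 163 of all 251 members lower, 86 higher and 2 equal. The tested members whose groups did not overlap numbered 60 higher and 139 lower, beside a background of 40.8% and 39.0%, or 79.8% in either direction.

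The 264 zinc finger genes on other chromosomes did not show this tilt. Of their 222 tested IDs, 88 were higher and 76 lower, with a median difference of 0.07. The remaining 1230 genes of chromosome 19 leaned the other way, with 363 of 722 tested genes higher, 223 lower and a median of 0.19. The difference between these lists and the members was not tested.

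The falls lay mainly among the more abundant members. Of the 114 members with a mean of at least 5 FPKM over all libraries, 17 rose and 92 fell (median -0.83), against 38.2% higher and 39.7% lower among all tested genes of that level. Of the 113 tested members below it, 42 rose and 47 fell (median -0.05), against 44.5% and 34.1%. Split by the parental mean alone, which enters the difference itself, 47 of 97 tested members below 5 FPKM rose and 28 fell (median 0.13), and 12 of 130 at or above it rose and 111 fell (median -0.86). The split over all libraries was chosen after the values were seen. Level was not separated here from place on the chromosome.

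Tested members were low in level beside other genes. The median of the tested members' means was 5.77 FPKM in parental and 3.93 FPKM in resistant cells, against 10.4 and 10.6 FPKM for all tested genes. A mean of 1 FPKM was reached in both groups by 214 members, in parental cells alone by 5 and in resistant cells alone by 8. The parental 5 were ZNF676, ZNF730, ZNF780B, ZNF460 and ZNF154, and the resistant 8 were ZNF177, ZNF441, ZNF763, ZNF442, ZNF709, ZNF490, ZNF333 and ZNF781. Above 20 FPKM stood 21 members in parental cells and 8 in resistant cells. ZNF154, at 1.04 FPKM in parental and 0.0642 FPKM in resistant cells, lay just inside the filter, and ZNF565, at 0.61 and 0.917 FPKM, just outside. The 24 members below it, including ZNF536 and ZNF835 at 0 in all 6 libraries, were not tested.

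Direction went by place on the chromosome. Members were chained by position, with a new cluster wherever the next member began more than 1 Mb further on. This gave 9 clusters of at least 4 members, which hold 240 members and are named here by their first and last one, and left 11 scattered members. From the tip of the short arm to that of the long arm, the median differences ran 0.28 (ZNF554 to ZNF77), 0.74 (ZNF557 to ZNF846), 0.71 (ZNF653 to ZNF791), -0.91 (ZNF101 to ZNF254), 0.23 (ZNF302 to ZNF792), 0.25 (ZNF565 to ZNF573), -0.24 (ZNF575 to ZNF296), -1.12 (ZNF175 to ZNF331) and -0.77 (ZNF628 to ZNF446). In 5 of these clusters at least 80.8% of tested members passed in 1 direction. Level differed by cluster too. Parental sums were 591 FPKM over 38 members in ZNF175 to ZNF331, 564 over 60 in ZNF628 to ZNF446 and 353 over 36 in ZNF101 to ZNF254. They were 112 FPKM over 16 members in ZNF557 to ZNF846 and 76.8 over 29 in ZNF653 to ZNF791. The parts of level and place in the differences were not tested.

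**Figure D1:**
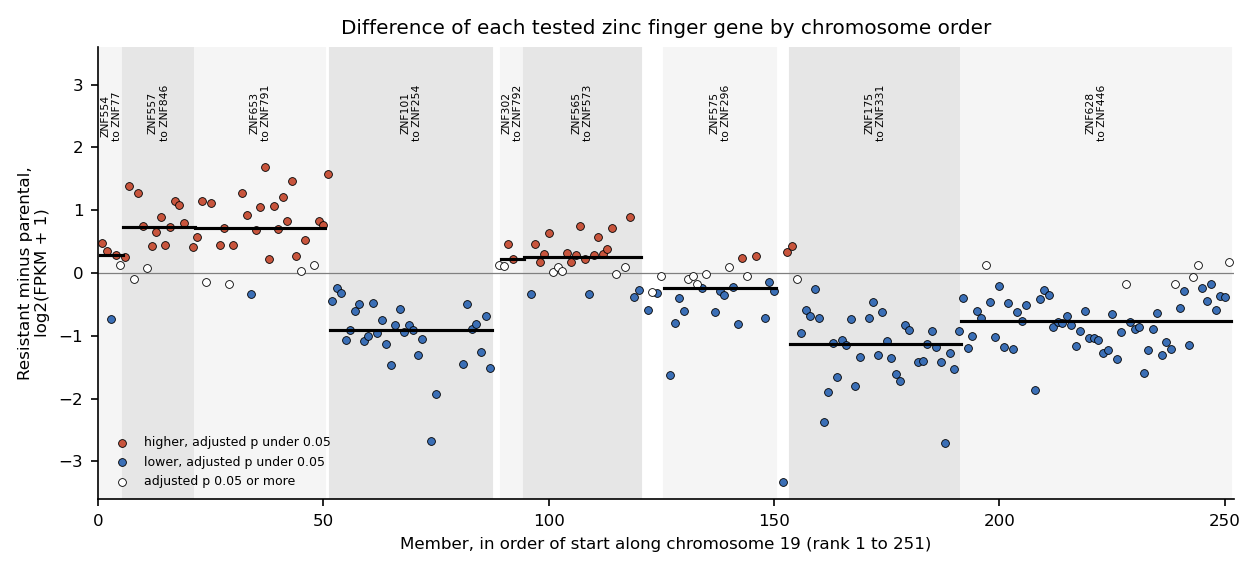
Difference on the log2(FPKM + 1) scale, resistant minus parental, of each of the 227 tested members against its rank along chromosome 19; red points are higher and blue points lower at a limma adjusted p under 0.05, white points did not pass, shaded bands are clusters and black lines their medians. The bands of ZNF557 to ZNF846 and ZNF653 to ZNF791 lie above 0 and those of ZNF101 to ZNF254, ZNF175 to ZNF331 and ZNF628 to ZNF446 below it.

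**Figure D2:**
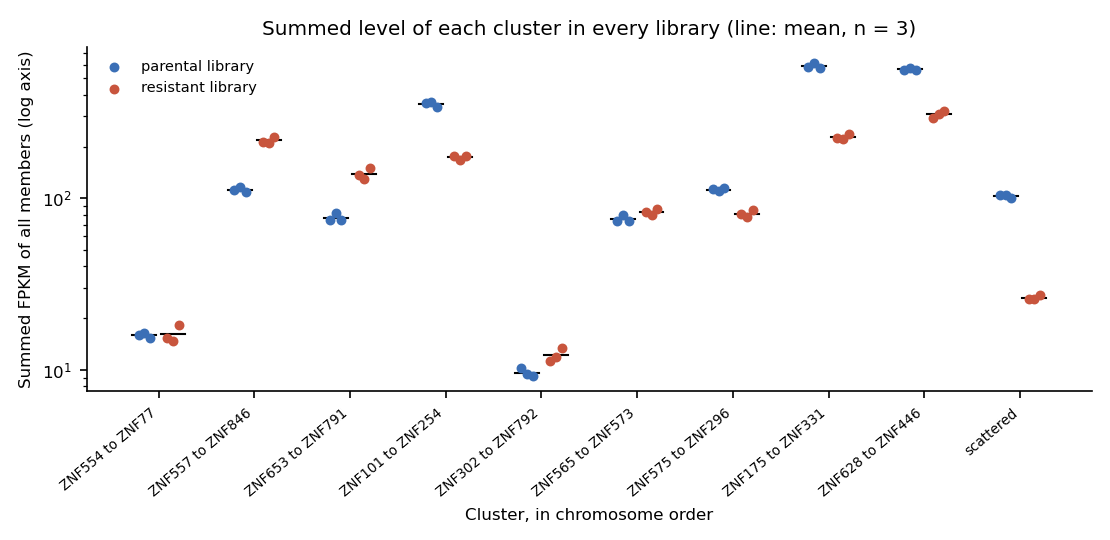
Summed FPKM of all members of each cluster (log axis) in the 3 parental (blue) and 3 resistant (red) libraries, with the mean as a line. The ZNF175 to ZNF331 cluster went from a mean of 591 to 227 FPKM and the ZNF557 to ZNF846 cluster from 112 to 217 FPKM.

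The clusters with the highest medians lay on the short arm. In the ZNF557 to ZNF846 cluster (chr19:7069455-9903856, GRCh37), 13 of 15 tested members rose and none fell, out of 16. Its summed level was 111, 116 and 108 FPKM in the parental libraries and 212, 211 and 228 FPKM in the resistant ones, which lie apart. ZNF358 had the largest rise there on the log2(FPKM + 1) scale. It went from 12.9, 10.9 and 11.4 FPKM to 29.7, 31.6 and 34.8 FPKM, with every resistant library above every parental one. The difference was 1.38 (SE 0.0771, limma adjusted p = 5e-09), a 2.74-fold change in mean FPKM. ZNF558, a KRAB gene, followed with 6.91, 7.7 and 6.37 FPKM in parental and 18.1, 16.1 and 21.3 FPKM in resistant libraries (difference 1.28, SE 0.0969, limma adjusted p = 2.43e-07). ZNF121 (13.6 ± 0.906 to 31.4 ± 2.14 FPKM), ZNF561 (10.9 ± 0.406 to 24.4 ± 1.22 FPKM) and ZNF266 (14.1 ± 0.795 to 27.2 ± 2.38 FPKM; SD, n = 3) rose as well. With ZNF358 and ZNF317 (12.2 to 21.2 FPKM), they made up 5 of the 8 members above 20 FPKM in resistant cells.

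The ZNF653 to ZNF791 cluster (chr19:11594242-12750912) followed, with 21 of 26 tested members higher and 1 lower, out of 29. Its summed level was 74.4, 81.6 and 74.4 FPKM in parental and 137, 130 and 150 FPKM in resistant libraries, again without overlap. ZNF442, a KRAB gene, was nearly silent in parental cells. Its values were 0.398, 0.524 and 0.485 FPKM there and 3.03, 2.7 and 3.47 FPKM in resistant cells (difference 1.47, SE 0.0828, limma adjusted p = 5.48e-09). The longer of the ZNF788 IDs (chr19:12203078-12248050) had the largest rise of all members on the log2(FPKM + 1) scale. It went from 1.7, 1.5 and 1.24 FPKM to 7.59, 5.74 and 7.85 FPKM (1.69, SE 0.109, limma adjusted p = 5.75e-08). It overlaps the shorter ZNF788 ID and ZNF20, so the split of reads among them is uncertain. The longer ZNF763 ID (chr19:12035890-12091196) rose from 0.796, 0.98 and 0.685 FPKM to 3.75, 2.93 and 3.49 FPKM (1.27, SE 0.0902, limma adjusted p = 4.87e-08), but 53.96% of its transcript's 50-base words also occur in other genes. ZNF44 (3.85 ± 0.36 to 10.2 ± 0.936 FPKM, SD, n = 3) rose by 1.21. ZNF878 alone fell, from 1.59, 2.03 and 1.68 FPKM to 1.3, 0.944 and 1.32 FPKM (-0.34, SE 0.0912, limma adjusted p = 0.00441).

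The sequences just upstream of ZNF358 and ZNF442 are shown to compare promoters of rising members with those of falling ones below. All such sequences are the 150 bases before the RefSeq transcription start (GRCh38.p14, read on the gene's strand, 5′ to 3′). Capitals mark CCAAT, the core of the CCAAT box, and CCGGAA, the core bound by ETS factors, each on either strand (as ATTGG or TTCCGG on the other). The windows are chr19:7515953-7516102 on the plus strand for ZNF358 and chr19:12365684-12365833 on the minus strand for ZNF442.
ZNF358: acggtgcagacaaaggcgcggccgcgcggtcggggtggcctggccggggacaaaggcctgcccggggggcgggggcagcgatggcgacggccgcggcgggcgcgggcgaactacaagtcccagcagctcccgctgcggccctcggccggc
ZNF442: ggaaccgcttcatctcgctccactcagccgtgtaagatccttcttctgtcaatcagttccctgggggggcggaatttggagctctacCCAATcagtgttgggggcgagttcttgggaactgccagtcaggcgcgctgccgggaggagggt
That of ZNF358 holds 23 CG pairs and neither motif, and that of ZNF442 holds 8 CG pairs and 1 CCAAT.

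The small cluster nearest the short-arm tip, ZNF554 to ZNF77, had 5 members with a summed level of 15.9 ± 0.528 FPKM in parental and 16.1 ± 1.86 FPKM in resistant cells (SD, n = 3), which overlap. Of its members 3 rose, 1 fell and 1 did not pass. ZNF554 went from 2.37, 2.19 and 2.61 FPKM to 3.3, 3.6 and 4.34 FPKM (0.48, SE 0.0893, limma adjusted p = 0.000306). ZNF556 moved against it, from 6.66, 6.95 and 6.54 FPKM to 3.37, 3.32 and 4.3 FPKM (-0.73, SE 0.0836, limma adjusted p = 4.39e-06). Both KRAB genes thus moved clear of the parental range in opposite directions.

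The ZNF101 to ZNF254 cluster (chr19:19779605-24312654), next to the centromere on the same arm, fell without exception among its tested members. Out of 36 members 30 were tested and all 30 were lower, 12 of them by at least 1, although ZNF14 overlapped between groups. The summed level was 357, 363 and 341 FPKM in parental libraries and 175, 167 and 177 FPKM in resistant ones, a ratio of 0.489. ZNF257 had the largest fall, from 15.9, 16.1 and 14.7 FPKM to 2.03, 1.37 and 1.45 FPKM (-2.67, SE 0.0906, limma adjusted p = 6.74e-11), so parental levels were 9.64 times the resistant ones. Its neighbour ZNF676 went from 6.23, 6.22 and 6.01 FPKM to 0.853, 0.838 and 0.964 FPKM (-1.92, SE 0.0685, limma adjusted p = 8.09e-11). In both, the libraries of the groups lie far apart. ZNF91, which represses SVA retrotransposons, had 18.0, 17.7 and 17.6 FPKM in parental and 9.28, 7.62 and 10.7 FPKM in resistant libraries (-0.89, SE 0.0945, limma adjusted p = 4.39e-06). ZNF93, which represses an older set of LINE-1 elements, went from 16.8, 17.5 and 14.6 FPKM to 8.64, 7.79 and 8.13 FPKM (-0.91, SE 0.0738, limma adjusted p = 1.69e-07). Resistant levels of ZNF91 and ZNF93 were 0.518 and 0.502 times the parental ones.

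Levels along this cluster were uneven. ZNF208, ZNF729, ZNF98, ZNF492, ZNF99 and ZNF728, which were the 6 untested members, lay at 0.0263 FPKM or less in both groups. Within and beside this silent stretch sit ZNF257, ZNF676 and ZNF730. The last went from 2.78, 2.57 and 2.59 FPKM to 0.328, 0.352 and 0.329 FPKM (-1.45, SE 0.0677, limma adjusted p = 9.74e-10). This stretch was singled out after its values were seen. Further out, ZNF714 (24.1 ± 0.937 to 8.17 ± 0.86 FPKM), ZNF254 (15.1 ± 3.8 to 4.59 ± 0.525 FPKM) and ZNF43 (21.1 ± 1.65 to 9.64 ± 0.318 FPKM; SD, n = 3) fell by 1.46, 1.51 and 1.05.

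**Figure D3:**
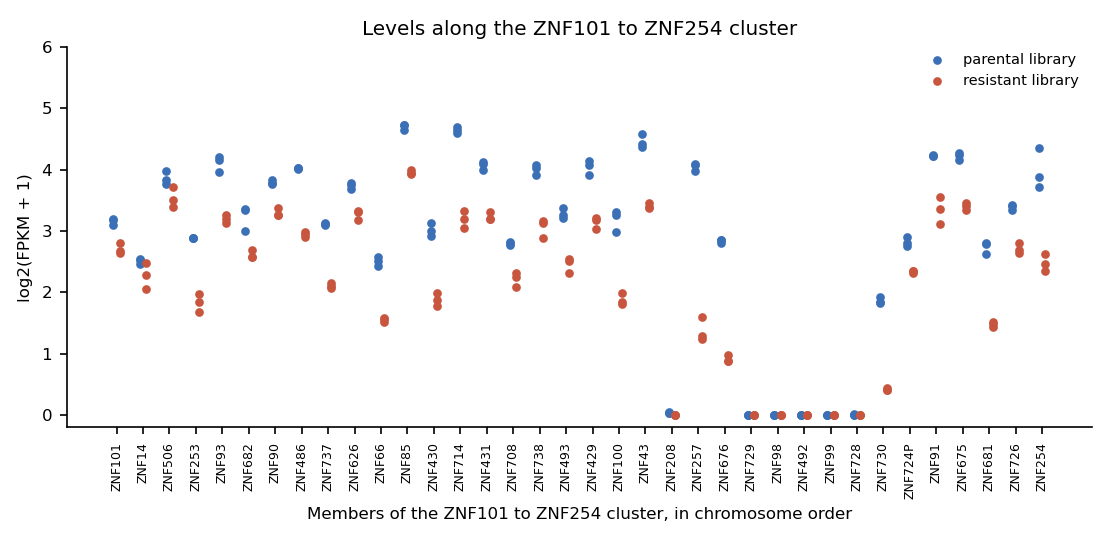
Level, as log2(FPKM + 1), of the 36 members of the ZNF101 to ZNF254 cluster in chromosome order, with 3 parental (blue) and 3 resistant (red) libraries each. Resistant points lie below parental ones at tested members apart from ZNF14, and 6 members from ZNF208 to ZNF728 lie at or near 0 in both groups.

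The promoters of ZNF257 and ZNF91 are shown because genes of this cluster share a recognisable start region. The windows are chr19:22052334-22052483 on the plus strand for ZNF257 and chr19:23395472-23395621 on the minus strand for ZNF91 (GRCh38.p14).
ZNF257: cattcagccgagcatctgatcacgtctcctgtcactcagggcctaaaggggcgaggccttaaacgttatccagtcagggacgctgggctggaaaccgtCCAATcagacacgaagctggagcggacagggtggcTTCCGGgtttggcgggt
ZNF91: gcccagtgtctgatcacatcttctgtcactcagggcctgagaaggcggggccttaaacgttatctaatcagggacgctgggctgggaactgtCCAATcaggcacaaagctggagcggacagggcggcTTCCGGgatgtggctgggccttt
Each window has 1 CCAAT followed by 1 ETS core at like places, and the 300-base promoters of the pair are 79.0% identical. ZNF257 and ZNF91 fell by different amounts, 2.67 and 0.89 on the log2 scale, and the part of promoter sequence in this was not tested.

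The clusters on the proximal long arm moved little. ZNF302 to ZNF792 had 5 members, of which 3 were tested and 2 rose, with sums of 9.62 ± 0.494 FPKM in parental and 12.1 ± 1.11 FPKM in resistant cells (SD, n = 3). ZNF181 rose there from 2.48, 1.67 and 2.21 FPKM to 2.97, 3.2 and 3.68 FPKM (0.46, SE 0.102, limma adjusted p = 0.00126). In ZNF565 to ZNF573 (chr19:36673188-38307940), 15 of 24 tested members rose and 4 fell, none by 1 or more, and the sums were 75.6 ± 3.23 and 83.0 ± 3.48 FPKM. ZNF781 had the largest rise, from 0.328, 0.231 and 0.21 FPKM to 1.43, 1.28 and 1.28 FPKM (0.89, SE 0.0723, limma adjusted p = 1.7e-07). Its neighbour ZNF607 fell from 3.52, 3.88 and 3.48 FPKM to 2.84, 2.4 and 2.42 FPKM (-0.38, SE 0.0765, limma adjusted p = 0.000562). These adjacent members thus moved in opposite directions. ZNF382, a repressor described as silenced in several carcinomas, rose from 1.87, 1.61 and 1.98 FPKM to 3.19, 3.12 and 3.86 FPKM (0.64, SE 0.0856, limma adjusted p = 1.97e-05).

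In ZNF575 to ZNF296 (chr19:44029649-45579846), 13 of 21 tested members fell, 2 rose and 6 did not pass. The sums were 113, 110 and 114 FPKM in parental and 80.6, 77.8 and 85.3 FPKM in resistant libraries. ZNF576 stood apart with a fall from 7.94, 7.48 and 9.07 FPKM to 1.75, 2.29 and 1.83 FPKM (-1.63, SE 0.0886, limma adjusted p = 3.78e-09). It overlaps SRRM5. ZNF112 was higher, at 2.4, 2.5 and 2.57 FPKM against 1.84, 1.86 and 1.98 FPKM (0.27, SE 0.0683, limma adjusted p = 0.00285), a small change whose groups do not overlap.

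ZNF175 to ZNF331 (chr19:52074551-54083523) was the cluster with the highest summed level in parental cells and the lowest median. Of 36 tested members out of 38, 34 fell, 21 of them by at least 1, and the sum went from 584, 616 and 574 FPKM to 224, 222 and 236 FPKM, a ratio of 0.385. ZNF525 fell most, from 29.7, 30.9 and 26.6 FPKM to 3.56, 3.57 and 3.65 FPKM (-2.71, SE 0.067, limma adjusted p = 3.16e-12), a parental level 8.09 times the resistant one. ZNF432 went from 30.8, 32.8 and 39.5 FPKM to 5.24, 5.89 and 6.18 FPKM (-2.38, SE 0.0908, limma adjusted p = 3.88e-10). The overlapping ZNF841 was spread more widely, with 55.9, 64.2 and 45.6 FPKM in parental and 10.5, 17.9 and 14.1 FPKM in resistant libraries (-1.90, SE 0.224, limma adjusted p = 0.000613). ZNF432 and ZNF841 overlap on the same strand, so reads of their shared part could be counted for either. Among other abundant members, ZNF880 (40.2 ± 2.02 to 10.8 ± 0.345 FPKM), ZNF528 (31.0 ± 2.18 to 11.7 ± 2.21 FPKM) and ZNF677 (34.4 ± 1.44 to 14.6 ± 0.994 FPKM; SD, n = 3) fell by 1.80, 1.34 and 1.18.

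Members of this cluster with known roles also fell. ZNF350, also called ZBRK1, which acts with BRCA1, had 19.3, 18.9 and 20.4 FPKM in parental and 11.1, 11.3 and 13.0 FPKM in resistant libraries (-0.69, SE 0.0701, limma adjusted p = 1.56e-06). ZNF331, an imprinted gene, went from 12.1, 13.9 and 13.7 FPKM to 6.92, 5.58 and 7.06 FPKM (-0.92, SE 0.086, limma adjusted p = 7.4e-07). ZNF808, needed for pancreas development, went from 6.09, 5.98 and 5.22 FPKM to 3.61, 4.04 and 4.09 FPKM (-0.46, SE 0.0753, limma adjusted p = 0.000109), with 28.56% of its 50-base words found in other genes. All 3 had separate groups. At the cluster's first position, ZNF175 alone rose, from 1.58, 1.71 and 1.7 FPKM to 2.53, 2.64 and 2.63 FPKM (0.43, SE 0.0679, limma adjusted p = 7.31e-05).

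The promoters of ZNF525 and ZNF468 are shown as those of 2 strongly falling members of this cluster (ZNF468 went from 25.1 ± 1.53 to 6.93 ± 0.203 FPKM, SD, n = 3). The windows are chr19:53365555-53365704 on the plus strand and chr19:52857620-52857769 on the minus strand (GRCh38.p14).
ZNF525: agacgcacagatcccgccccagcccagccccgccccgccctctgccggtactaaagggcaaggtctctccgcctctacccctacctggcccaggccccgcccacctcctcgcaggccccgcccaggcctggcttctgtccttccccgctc
ZNF468: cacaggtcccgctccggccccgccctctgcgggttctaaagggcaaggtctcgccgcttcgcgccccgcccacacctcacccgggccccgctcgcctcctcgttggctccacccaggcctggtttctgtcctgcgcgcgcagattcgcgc
The pair is 72.0% identical over 300 bases, but these promoters do not resemble those of the ZNF101 to ZNF254 cluster, with 47.7% identity between ZNF525 and ZNF257. Neither 150-base window holds CCAAT or the ETS core, but the 300-base promoter of ZNF525 holds the ETS core.

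The terminal cluster, ZNF628 to ZNF446 (chr19:55987699-58992597), is the largest, with 60 members. Of 59 tested, 53 fell and none rose, 18 of the falls being at least 1. Its sum was 560, 576 and 555 FPKM in parental and 293, 309 and 322 FPKM in resistant libraries, a ratio of 0.546. ZNF264 fell most on the log2(FPKM + 1) scale. It went from 18.3, 17.6 and 14.2 FPKM to 3.5, 3.87 and 4.07 FPKM (-1.87, SE 0.0898, limma adjusted p = 2.01e-09). ZNF544, among the most abundant members, went from 52.5, 48.5 and 51.6 FPKM to 20.9, 23.5 and 23.5 FPKM (-1.14, SE 0.066, limma adjusted p = 7.26e-09). ZNF787 was lower as well (38.6 ± 0.533 to 18.6 ± 0.672 FPKM, SD, n = 3).

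ZNF417 and ZNF587, close paralogs that repress HERV-K proviruses, fell by 0.63 and 0.89. ZNF417 had 7.41, 7.86 and 7.52 FPKM in parental and 4.67, 4.57 and 4.45 FPKM in resistant libraries (SE 0.0619, limma adjusted p = 1.1e-06), and ZNF587 had 9.59, 10.3 and 10.2 FPKM and 4.88, 5.11 and 4.81 FPKM (SE 0.0623, limma adjusted p = 4.01e-08). They share 40.08% and 20.15% of their 50-base words with other genes, so their separate values are uncertain. ZNF274, which binds zinc finger genes themselves and recruits SETDB1, kept most of its level, with 26.4, 29.3 and 29.4 FPKM in parental and 21.4, 24.0 and 24.1 FPKM in resistant libraries (-0.28, SE 0.0688, limma adjusted p = 0.00236).

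The promoter of ZNF264 (chr19:57191350-57191499, plus strand, GRCh38.p14) is shown for this cluster.
ZNF264: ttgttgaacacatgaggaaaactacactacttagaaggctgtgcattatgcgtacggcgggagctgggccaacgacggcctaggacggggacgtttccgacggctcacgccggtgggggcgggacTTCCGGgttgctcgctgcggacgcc
It has 1 ETS core close to the start, as in ZNF257 and ZNF91, and no CCAAT. Over 300 bases it is 48.3% identical to that of ZNF257.

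The 11 scattered members included the one with the highest level and, on the log2(FPKM + 1) scale, the largest fall of all. ZNF114 (chr19:48675575-48790865), a KRAB gene with 3 fingers by pattern, had 90.2, 88.4 and 85.8 FPKM in parental and 7.81, 8.82 and 7.0 FPKM in resistant libraries. The groups lie far apart (-3.33, SE 0.0751, limma adjusted p = 1.31e-12), the parental mean being 11.2 times the resistant one. Its span overlaps C19orf68 and CARD8. ZNF333 rose from 0.886, 0.438 and 0.587 FPKM to 3.82, 3.12 and 4.77 FPKM (1.58, SE 0.135, limma adjusted p = 2.83e-06). It lies between the rising ZNF653 to ZNF791 cluster and the falling ZNF101 to ZNF254 cluster, and overlaps EMR2 and EMR3. Over the 8 tested scattered members 2 rose and 3 fell.

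**Figure D4:**
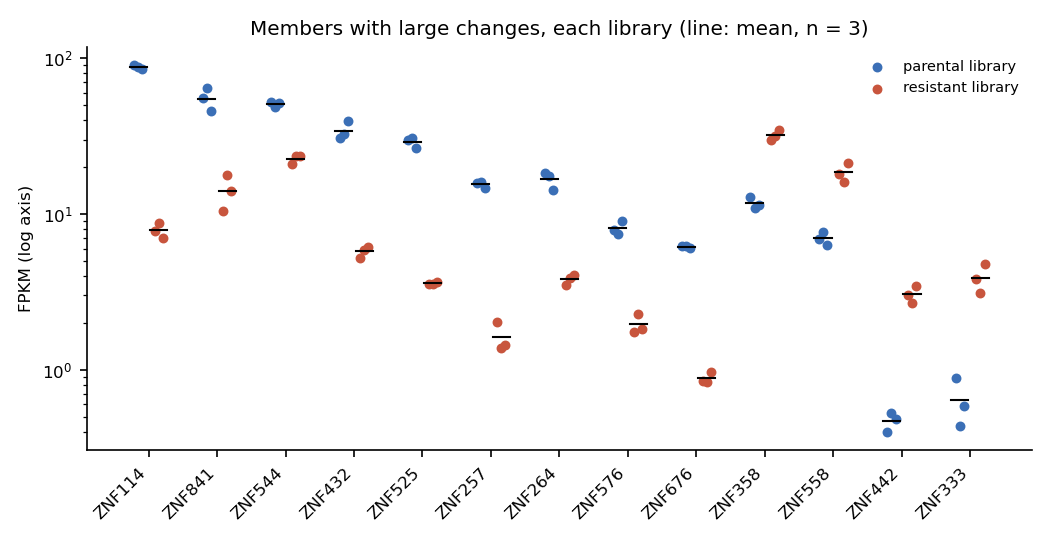
FPKM (log axis) in each parental (blue) and resistant (red) library of 13 members with large changes or high levels, with the mean of 3 libraries as a line. ZNF114 fell from a mean of 88.1 to 7.88 FPKM, and ZNF442 rose from 0.469 to 3.07 FPKM.

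Genes inside the cluster spans that are not members, of any family, were compared with the members around them. They include the joint ID ZNF559-ZNF177 (0.49), which overlaps the members ZNF559 and ZNF177. In the ZNF557 to ZNF846 span, 19 of 33 such tested genes rose and 7 fell (median 0.46), and in the ZNF653 to ZNF791 span 3 of 6 rose and 1 fell (median 0.32). In the ZNF628 to ZNF446 span, 16 of 21 fell and 1 rose, and their median was -0.80 beside -0.77 for the members. Among them are zinc finger genes with other names (ZIK1, ZFP28, FIZ1, ZSCAN1, ZSCAN5A, ZSCAN18 and ZSCAN22), so these medians are not from separate families. ZIK1 went from 17.0, 17.1 and 15.7 FPKM to 4.55, 4.52 and 5.0 FPKM (-1.63, SE 0.0653, limma adjusted p = 2.41e-10), and ZFP28 from 6.07 ± 0.356 to 3.05 ± 0.212 FPKM (SD, n = 3). ZSCAN18 was the gene that rose, from 41.9 ± 2.29 to 54.9 ± 5.44 FPKM. EPN1, an endocytic adaptor, fell from 129 ± 9.42 to 51.5 ± 3.99 FPKM (SD, n = 3). In the ZNF575 to ZNF296 span 14 of 18 were lower and 4 higher, with a median of -0.72 beside -0.24 for the members. Falls of at least 1 were seen for 8 of these 18 and for 1 of the 21 tested members. In the ZNF565 to ZNF573 span none of 4 such tested genes passed (median 0.12), where 15 of 24 tested members rose. The 2 clusters with the most uniform falls offer almost no such comparison, with RPSAP58 (-0.36) as the only tested gene in the ZNF101 to ZNF254 span, and PPP2R1A (-1.43) and ERVV-2 (0.51) in the ZNF175 to ZNF331 span.

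**Figure D5:**
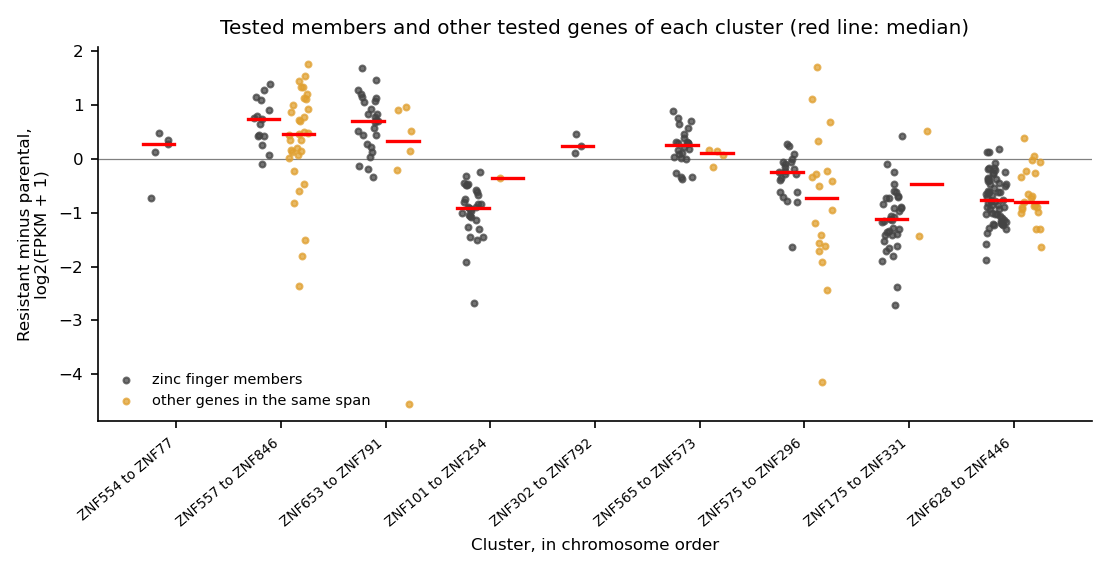
Difference on the log2(FPKM + 1) scale of tested members (dark points) and of other tested genes inside the same cluster span (yellow points), by cluster in chromosome order, with medians in red. In the ZNF628 to ZNF446 span the medians are -0.77 and -0.80, and in the ZNF557 to ZNF846 span 0.74 and 0.46.

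The stretches between clusters, which hold few or no members, had directions of their own. Between ZNF846 and ZNF653, 42 of 47 tested other genes rose and 1 fell (median 0.82), and between ZNF791 and ZNF101, 112 of 140 rose and 13 fell (median 0.77). Past the ZNF101 to ZNF254 cluster, 9 of 24 rose and 10 fell (median -0.05). From ZNF573 to ZNF575 the median was -0.17 over 79 genes, and from ZNF296 to ZNF175 it was 0.11 over 127. Between ZNF331 and ZNF628, 32 of 35 fell and 3 rose (median -1.18), and beyond ZNF446, 5 of 6 fell and none rose (median -0.49). Genes of the short arm around the rising clusters thus mostly rose, and genes of the long arm beyond ZNF331 mostly fell. In the stretch just before the falling ZNF175 to ZNF331 cluster, however, 56 of 127 rose and 42 fell. The ZNF101 to ZNF254 cluster fell between a stretch that rose and one with a median near 0. No test of position was made.

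Members reported as methylated in carcinomas moved in both directions. Of a list of 14 (ZNF132, ZNF135, ZNF154, ZNF177, ZNF331, ZNF382, ZNF471, ZNF529, ZNF568, ZNF582, ZNF583, ZNF667, ZNF671 and ZNF781), all were tested, 5 rose (35.7%), 7 fell and 2 did not pass, with a median of -0.32. Of all tested genes, 39.9% rose and 38.1% fell, so the list is not set apart from the background by these counts. The risers, ZNF177, ZNF529, ZNF382, ZNF568 and ZNF781, lie in the ZNF557 to ZNF846 and ZNF565 to ZNF573 clusters, and the 7 that fell in the last 2 clusters. ZNF154 dropped from 0.949, 1.11 and 1.06 FPKM to 0.0768, 0.0472 and 0.0687 FPKM (-0.94, SE 0.0687, limma adjusted p = 6.42e-08). ZNF132 went from 2.6, 2.3 and 2.23 FPKM to 1.1, 1.2 and 1.43 FPKM (-0.59, SE 0.0798, limma adjusted p = 2.03e-05). ZNF671 had 2.3, 2.25 and 2.32 FPKM in parental and 1.71, 1.88 and 2.21 FPKM in resistant libraries and did not pass (-0.17, SE 0.0781, limma adjusted p = 0.0661). It passed under median-of-ratios scaling (limma adjusted p = 0.0499) and without resistant replicate 3 (limma adjusted p = 0.0148). ZNF582 (7.16 to 2.63 FPKM) and ZNF667 (5.26 to 1.70 FPKM) had the largest falls of the list on the log2(FPKM + 1) scale. That scale understates changes of low genes such as ZNF154. ZNF568 rose from 2.58 to 5.04 FPKM.

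Members grouped by features of the encoded proteins fell more often than they rose in each large group. A KRAB pattern was found in the longest reading frame of 204 members, and of their 187 tested IDs 48 rose and 117 fell (median -0.49). Among 41 coding members without the pattern, 35 were tested, 9 rose and 21 fell (median -0.28). The share of risers was 25.7% in each. The pattern is strict and missed some members, among them ZNF175 and ZNF544. A SCAN pattern, a dimerisation domain, was found in 3 members (ZNF444, ZNF274 and ZNF446), of which 2 fell. Finger number ran from 0 to 36 with a median of 12, and the median difference was -0.28 for 0 to 8 fingers, -0.47 for 9 to 15 and -0.42 for 16 or more. Members on the plus and minus strands had the same median of -0.42. Sequence shared among paralogs could blur the counts, and the medians were -0.44 for the 54 tested members that share at least 10% of their 50-base words with other genes and -0.45 for the rest. Another gene overlaps 102 members, whose tested IDs had a median of -0.20, against -0.50 without overlap.

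Promoter sequences of RefSeq (GRCh38.p14) matched 214 of the 251 members. Their median ratio of observed to expected CG pairs was 0.76 over 300 bases, from 250 before to 50 after the start, against 0.579 over all 35116 RefSeq promoters. The ratio was lowest in the ZNF101 to ZNF254 cluster (0.448) and high in the ZNF175 to ZNF331 and ZNF628 to ZNF446 clusters (0.827 and 0.829), all of which fell. Promoters of the ZNF101 to ZNF254 cluster were alike, with a median identity of 76.0% over 351 pairs, where pairs of members from different clusters had 46.3%. No other cluster had a median above 48.7%.

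Over the same 300 bases, the ETS core CCGGAA, read on both strands, occurred in 51.4% of member promoters and 17.2% of all RefSeq promoters. CCAAT occurred in 54.2% and 34.6%. Falling members held the ETS core in 62.8% of promoters and rising members in 39.6%. It was one of several motifs searched. CCAAT stood in 57.9% of falling and 54.7% of rising members, and GGGCGG, the SP1 motif, in 62.8% and 64.2%. TGACGTCA, the CRE motif, went the other way, with 2.48% of falling and 9.43% of rising members. Clusters differed in the ETS core as well, from 24.0% in ZNF653 to ZNF791 to 81.5% in ZNF101 to ZNF254. Within the ZNF175 to ZNF331 cluster the median difference was -1.12 for members with the core and -1.17 for those without. In ZNF628 to ZNF446 it was -0.89 and -0.46, and in ZNF557 to ZNF846 it was 0.78 and 0.74. In ZNF101 to ZNF254 it was -0.93 (20 tested members) and -0.49 (5 tested members). It was 0.5 and 0.7 in ZNF653 to ZNF791, 0.29 and 0.18 in ZNF565 to ZNF573, and -0.24 and -0.28 in ZNF575 to ZNF296. These differences were not tested. A match describes letters in the window and is not a bound site.

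Partners through which KRAB zinc finger proteins act were measured in the same libraries. Of a list of 32, 31 were found and 30 tested, 8 rose (26.7%) and 14 fell (46.7%), with a median of -0.11. Of all tested genes, 39.9% rose, 38.1% fell and 78.0% passed in either direction, so the number of partners that passed is near the background. TRIM28, the corepressor bound by the KRAB box, went from 428, 439 and 402 FPKM to 148, 168 and 155 FPKM (-1.43, SE 0.0689, limma adjusted p = 1.32e-09), with the groups far apart. The gene itself lies at chr19:59055458-59062089, just past the last cluster, and is among the 5 of 6 genes there that fell. SETDB1, the methyltransferase recruited by TRIM28, had 11.6, 11.2 and 11.7 FPKM in parental and 10.6, 9.59 and 10.9 FPKM in resistant libraries and did not pass (-0.14, SE 0.0644, limma adjusted p = 0.0625), though it did without resistant replicate 3 (limma adjusted p = 0.0434). Its cofactor ATF7IP differed by -0.17 (16.9 ± 0.977 to 14.9 ± 0.909 FPKM, SD, n = 3, limma adjusted p = 0.0343), a call lost without parental replicate 1, parental replicate 2 or resistant replicate 2, on TPM and with no filter (limma adjusted p from 0.0571 to 0.133). The heterochromatin proteins diverged, with CBX3 falling from 262 ± 12.9 to 102 ± 2.49 FPKM and CBX5 at 20.7 ± 2.08 and 22.2 ± 1.16 FPKM (SD, n = 3), which did not pass.

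DNA methyltransferases diverged too. DNMT1, on chromosome 19 between the rising clusters, went from 50.7, 54.9 and 47.6 FPKM to 88.9, 96.3 and 85.2 FPKM (0.81, SE 0.0716, limma adjusted p = 3.99e-07). DNMT3B fell from 7.03, 7.44 and 6.25 FPKM to 3.53, 3.77 and 3.65 FPKM (-0.76, SE 0.0726, limma adjusted p = 7.79e-07), and DNMT3A rose from 1.74 ± 0.0634 to 2.99 ± 0.00855 FPKM (SD, n = 3). DAXX, a chaperone of the histone variant deposited with ATRX at repeats, had the largest rise of the list, from 16.8, 15.9 and 15.4 FPKM to 35.5, 40.3 and 36.2 FPKM (1.17, SE 0.0664, limma adjusted p = 5.81e-09). MORC2, which compacts chromatin for the HUSH complex, rose from 13.3, 13.9 and 13.1 FPKM to 17.1, 17.6 and 17.9 FPKM (0.36, SE 0.0582, limma adjusted p = 9.73e-05). The HUSH subunit MPHOSPH8 fell from 12.7 ± 0.441 to 9.08 ± 0.549 FPKM, and HDAC1 from 88.8 ± 3.42 to 43.7 ± 1.0 FPKM (SD, n = 3).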

How the data were processed

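RNA was extracted with Trizol and libraries were made with an mRNA kit, per the labels' protocols. The submitters' processing notes give the build as GRCh37 and list DESeq, without version. Not given in the sources used here are the aligner, the counting tool, the annotation and the use of strand. The authors deposited FPKM, in a table of 20356 gene IDs and in library files of 57905 IDs, which also give, per the file headers, positions, TPM and coverage. TPM in the deposited files was FPKM times 1 factor per library (2.25 to 2.38) and served as an alternative. The deposited coverage was not used. Series and library FPKM differed by over 1e-05 in 1 to 4 genes per library. No counts were used and no counting interval can be given.

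The design named a count test for counts and limma for other values, and limma 3.58.1 (R 4.3.3) was used on log2(FPKM + 1) with a single group term, trended and robust, two-sided. Benjamini-Hochberg adjustment ran over all 12107 genes whose mean reached 1 FPKM in parental or resistant cells. The scale understates changes of low genes. The script was tested on simulated data. Members, lists and rules were chosen with earlier results of these data known, so no count here is independent support. Genes named are, per cluster, the largest rise and fall past 0.05, the 6 largest each way whose higher group averaged 2 FPKM or more, the 3 highest levels, background members and partners. Others were chosen after their values were seen. Coordinates of genes are GRCh37 from the files. Protein patterns and shared 50-base words came from GENCODE v29 transcripts matched by ID (247 members), and promoters from RefSeq (GRCh38.p14). Promoter identity is 300 bases aligned end to end by edit distance, leaving out overlapping windows. Alternatives were another pseudocount, other filters, scaling, TPM, plain moderation, a replicate block, each library left out, and other cluster gaps. Further ones, chosen after seeing the data, kept members sharing under 10% of 50-base words, or 1 ID per symbol.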

Additional observations from a re-analysis of the deposited data

Results flagged for a closer look

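Among zinc finger IDs of chromosome 19 that stand in the library files and not in the series table, and so in no comparison above, 2 lie above the parental libraries at a mean of at least 1 FPKM in resistant cells. ZNF833P (chr19:11750591-11797382), inside the rising ZNF653 to ZNF791 span, had 1.18, 1.31 and 0.973 FPKM in parental and 1.74, 1.94 and 1.93 FPKM in resistant libraries, a resistant mean of 1.87. ZNF826P (chr19:20451078-20607775), inside the ZNF101 to ZNF254 span where the tested members fell, had 8.39, 8.78 and 6.64 FPKM in parental and 10.9, 10.4 and 9.96 FPKM in resistant libraries, a resistant mean of 10.4. Neither was tested.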

How the results depend on the processing

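Across 13 alternative fits, between 0 and 11 of the members' calls were lost and none reversed. The 59 higher and 139 lower members became 55 to 59 and 130 to 143 with any 1 library left out, and 68 and 137 on TPM. Replicate numbers did not pair the samples: correlations of same-numbered deviations were -0.1355, 0.07612 and 0.09902, and not every sample correlated best with its own number. A replicate block gave 56 higher and 138 lower members. With a pseudocount of 0.1 the cluster medians were 0.83 (ZNF557 to ZNF846), 0.86 (ZNF653 to ZNF791), -0.36 (ZNF575 to ZNF296), -1.25 (ZNF175 to ZNF331), -0.94 (ZNF628 to ZNF446) and -0.25 (scattered). On TPM they were 0.83, 0.83, -1.17 (ZNF175 to ZNF331), -0.84 (ZNF628 to ZNF446) and 0.07 (scattered, from -0.18). With no filter on low values they were -0.83 (ZNF101 to ZNF254) and 0.04 (scattered), since more genes enter. The causes of the other shifts were not tested. Leaving out a library gave 0.66 to 0.79 for ZNF653 to ZNF791 and -1.15 to -1.08 for ZNF175 to ZNF331. With at least 1 FPKM in both groups, 3 of the methylated list rose in place of 5. Gaps of 0.5 and 2 Mb gave 10 and 6 clusters, of which 5 and 3 had a median below 0. The median of all tested genes moved to at most 0.05 on TPM. Depth in reads is unknown, so levels near 0 could not be ranked.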

Other observations

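The library files hold 21 further IDs of chromosome 19 whose symbols begin with ZNF, mostly pseudogenes and antisense RNAs, of which 12 averaged 1 FPKM or more in parental or resistant cells. Of these, 9 were lower in resistant cells without overlap, 2 higher and 1 overlapped, and none was tested. Of all tested genes of the series, 39.0% were lower and 40.8% higher without overlap, or 79.8% in either direction. In the terminal cluster span, ZNF542 had 36.2, 38.2 and 36.7 FPKM in parental and 10.3, 8.94 and 9.69 FPKM in resistant libraries. In the ZNF175 to ZNF331 span, ZNF761 went from 15.3, 17.9 and 16.5 FPKM to 4.21, 4.71 and 4.45 FPKM. ZNF818P, in the same span, went from 12.7, 14.7 and 12.9 FPKM to 3.59, 4.02 and 5.24 FPKM. The pseudogene ZNF702P was closer, with 24.4, 26.1 and 23.7 FPKM against 19.7, 19.6 and 20.2 FPKM. The antisense RNA ZNF667-AS1 had 17.7, 18.7 and 16.5 FPKM in parental and 9.37, 10.5 and 9.57 FPKM in resistant libraries, beside ZNF667 (5.26 to 1.70 FPKM). Where strand was not used, reads of such a pair cannot be told apart.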
